A study of Homo sapiens with 6 samples.

Results

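The comparison described here set 2 lines of A375 cells against each other: eIF4B-knockout cells that carry LacZ (KO/LacZ) and eIF4B-knockout cells given back wild-type eIF4B (KO/eIF4B). All 6 of the 6 arrays of the study entered it, 3 of each line, and they were paired within vehicle, 6 h of vemurafenib and 18 h of vemurafenib. A difference was called steady when it passed an adjusted p of 0.05 with treatment as a block and had the same sign in all 3 pairs. Of 13506 genes tested, 337 were steady (2.5%).

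A375 is a human melanoma line whose growth is driven by mutant BRAF, and vemurafenib is an inhibitor of that kinase. All 6 arrays came from cells in which CRISPR had been used to knock out eIF4B, and no unedited A375 cells entered the comparison. A lentivirus then delivered either LacZ, as the negative control, or wild-type eIF4B, and stable lines were established. Whether each line is a single clone or a pool was not given in the sources used here. The 6 groups were KO/LacZ and KO/eIF4B, each under DMSO vehicle, under 10 µM vemurafenib for 6 h and under 10 µM vemurafenib for 18 h, with 1 array per group. No duration is stated for the vehicle cells. Separate cultures are not mentioned in the labels, and p-values therefore cover only the spread between these arrays. What the transgenes do and any other difference between the established lines cannot be told apart.

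eIF4B is an RNA-binding protein that stimulates eIF4A, the helicase that unwinds the 5' leader of an mRNA so that the small ribosomal subunit can scan it. It is phosphorylated downstream of the ERK, mTOR, AKT and PIM kinases, and mRNAs with structured leaders are regarded as the most dependent on it. The arrays measured mRNA levels, not translation.

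Values are log2 RMA intensities, and a difference is KO/LacZ minus KO/eIF4B in log2 units, so that a positive difference means higher in the knockout line without rescue. Array medians lay between 5.196 and 5.221, and no array stood apart in its median. The melanoma regulators SOX10 (9.86 to 10.57 over the 6 arrays) and MITF (8.10 to 9.97) were well measured, while the pigment genes MLANA, TYR, TYRP1 and PMEL stayed between 3.43 and 5.81, around or below the array medians. AXL, a receptor kinase of undifferentiated melanoma, lay between 11.14 and 11.61. Markers of other cells were mixed. EPCAM and CDH1 of epithelia lay between 2.32 and 3.24, COL3A1, PDGFRA and FAP of fibroblasts between 3.19 and 4.38, and PTPRC of blood cells between 2.92 and 3.17. The keratins KRT18 (11.70 to 12.75), KRT14 (8.85 to 10.80) and KRT8 (7.94 to 8.94) were bright, as were LUM (6.39 to 9.56), ACTA2 (6.28 to 8.28) and COL1A1 (7.87 to 8.0) of fibroblasts, and LYZ of blood cells lay between 6.06 and 7.15. The part of other cells in the results was not tested.

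EIF4B itself separated the lines. Its brightest probe set read 8.40 (vehicle), 8.53 (6 h) and 8.53 (18 h) in KO/LacZ. In KO/eIF4B the values were 10.07, 10.14 and 10.28. The groups did not overlap, and the 3 KO/LacZ values all lay below the 3 KO/eIF4B values by a mean of -1.68 (SE 0.05, n = 3 pairs, adjusted p = 0.00558 by limma and Benjamini-Hochberg), which is 3.2-fold. This was the smallest adjusted p of all genes. A second probe set read 8.46, 8.72 and 8.45 in KO/LacZ against 8.12, 8.47 and 8.46 in KO/eIF4B, and the remaining one 6.11, 6.28 and 6.19 against 5.77, 6.13 and 6.17. These did not separate the lines at the threshold (differences of 0.19 and 0.17, with adjusted p-values of 0.439 and 0.454 by limma and Benjamini-Hochberg over all probe sets). With the mean of the 3 probe sets the EIF4B difference was -0.44. The positions of the probe sets on the transcript were not analysed here, and the arrays do not show whether the protein is lost.

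Among the 337 steady genes, 194 were higher in KO/LacZ (1.44% of genes tested) and 143 lower (1.06%). Every gene past the threshold had the same sign in its 3 pairs, and the same sign in all pairs was found in 6354 of all genes tested (47%), 3497 higher (25.9%) and 2857 lower (21.2%). The differences were modest. The median size was 0.48, or 1.39-fold, the smallest was 0.30, and 187 of the 337 were under 0.5. Only 21 reached 1 log2 unit on average, 9 higher and 12 lower. A difference of at least 1 log2 unit in each of the 3 pairs was found for 10 genes (0.074%), all of them steady: PGM5, FN1, PTPRR, KCNK1, PLAAT1 and TENM2 were higher, and EIF4B, MAGEB2, GBP1 and NAP1L2 lower. The calls need all 3 pairs. Without the 6 h pair or without the 18 h pair limma with Benjamini-Hochberg adjustment called 0 genes, with 2494 and 2727 at an unadjusted p under 0.05, against 3101 (23%) with all pairs. Without the vehicle pair it called 50, without the filter on dim genes 58, and with a variance prior that follows intensity 1169. The direction of the 337 genes could not change under these settings. Each gene has the same sign in all 3 pairs, and the values of each pair stayed the same. Of the steady list members named below by rule that are not among the leading genes, MX1, NGFR and ADM passed without the filter, and DDIT3 alone passed without the vehicle pair. Of the 337 genes, 18 had a mean under 5 in the line where they were lower and entered the test through the other line, 8 of them higher and 10 lower in KO/LacZ. PTPRR, ADCYAP1, VANGL2, COL4A5, GBP1 and SCRG1 are among these.

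**Figure D1:**
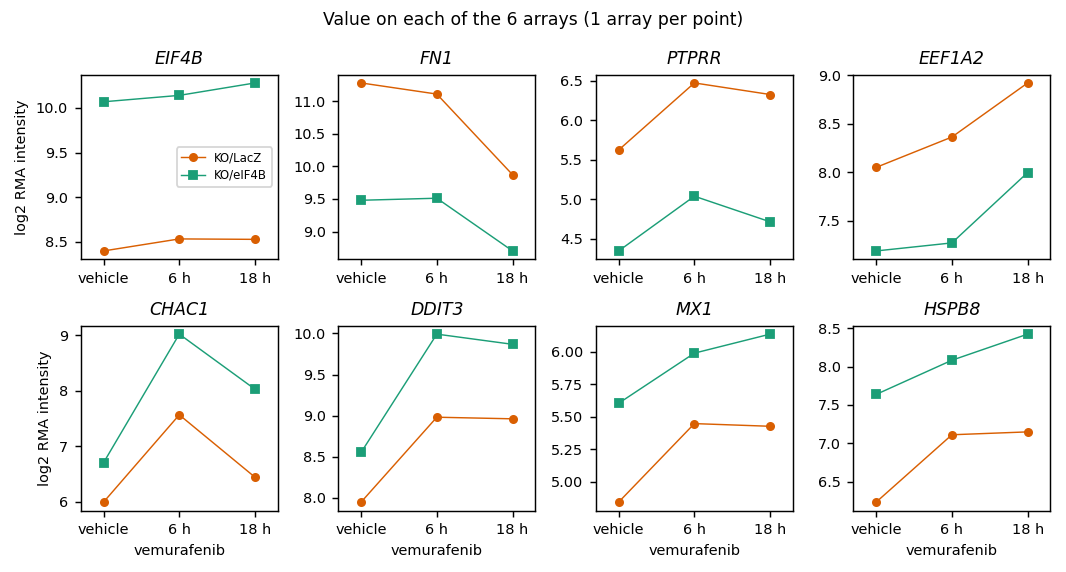
Log2 RMA intensity (vertical axes, each with its own range) of 8 genes on the 6 arrays, by treatment (horizontal axis), with orange circles for KO/LacZ and green squares for KO/eIF4B, and 1 array per point joined by lines. FN1, PTPRR and EEF1A2 lay higher in KO/LacZ at each treatment and EIF4B, CHAC1, DDIT3, MX1 and HSPB8 lower, by a mean of -1.68 for EIF4B and 1.52 for FN1.

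PGM5, FN1 and PTPRR had the highest differences in KO/LacZ. PGM5, a phosphoglucomutase relative that sits at adhesion junctions, read 5.65, 7.85 and 9.81 in KO/LacZ (vehicle, 6 h, 18 h, as in all series of values here) against 4.28, 6.39 and 7.66 in KO/eIF4B. Its values were higher at 6 h and higher again at 18 h in both lines, and the lines differed within each treatment by 1.37, 1.46 and 2.15 (mean 1.66, SE 0.16, adjusted p = 0.0276 by limma and Benjamini-Hochberg). The mean of all PGM5 probe sets gave 0.65, and the 1 other with a mean of at least 5 was not higher in all 3 pairs. FN1, the matrix protein fibronectin, read 11.28, 11.11 and 9.87 against 9.48, 9.51 and 8.70, a mean difference of 1.52 (SE 0.12) or 2.87-fold. Its 3 KO/LacZ values all exceeded the 3 KO/eIF4B values, and the 4 of its 6 other probe sets with a mean of at least 5 were all higher in all 3 pairs. The mean over all 7 FN1 probe sets gave a smaller difference of 0.95. TENM2, a teneurin that mediates contact between cells, read 6.47, 6.30 and 6.08 against 5.02, 5.26 and 5.05, again with no overlap (1.18, SE 0.10).

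PTPRR, a receptor-type tyrosine phosphatase that acts on MAP kinases, read 5.62, 6.47 and 6.32 in KO/LacZ against 4.34, 5.04 and 4.71 in KO/eIF4B, with no overlap and a mean difference of 1.44 (SE 0.08, adjusted p = 0.0184 by limma and Benjamini-Hochberg). KCNK1, a potassium channel of the pore-domain family, read 7.88, 8.05 and 8.67 against 6.76, 6.59 and 7.27, also without overlap (1.32, SE 0.08). PLAAT1, a phospholipid-modifying enzyme, read 6.71, 6.98 and 6.61 against 5.55, 5.68 and 5.23 (1.28, SE 0.06, adjusted p = 0.0163 by limma and Benjamini-Hochberg). The groups of PLAAT1 did not overlap either. Genes without overlap were not counted over all genes tested, and those named here were listed for their large differences. ADCYAP1, which encodes the neuropeptide PACAP, read 4.63, 6.01 and 6.57 against 3.81, 4.94 and 5.08, higher in each pair although the groups overlapped across treatments (1.12, SE 0.13). MDK, the heparin-binding growth factor midkine, read 8.09, 8.28 and 9.70 against 6.98, 7.52 and 8.63 (0.98, SE 0.08). EBI3, a cytokine subunit, read 5.79, 5.88 and 6.55 against 4.82, 5.03 and 5.64 (0.91).

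EEF1A2, the tissue-restricted form of the elongation factor that brings aminoacyl-tRNA to the ribosome, was the only translation factor besides EIF4B among the steady genes of the 2 translation factor lists. It read 8.05, 8.36 and 8.92 in KO/LacZ against 7.19, 7.27 and 8.0 in KO/eIF4B. The KO/LacZ values all lay above those of KO/eIF4B, by a mean of 0.96 (SE 0.06, adjusted p = 0.0276 by limma and Benjamini-Hochberg). Its widely expressed relative EEF1A1 differed by 0.01. The other leading higher genes were FBXL16, an F-box protein (1.07), the pseudogene GFOD3P (1.01), the microtubule regulator STMN3 (0.95), the membrane-attached signalling protein BASP1 (0.90) and the planar polarity gene VANGL2 (0.86). The 1 other GFOD3P probe set with a mean of at least 5 was not higher in all 3 pairs. FAM78B (0.89) and C19orf33 (0.87) lie above VANGL2 and were passed over by the pattern of their symbols. Of the 15 leading higher genes, ADCYAP1, FBXL16, STMN3, BASP1 and VANGL2 missed the threshold when dim genes were kept in the test.

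The lowest genes in KO/LacZ besides EIF4B included a cancer-testis antigen, an interferon-induced GTPase and a stress target. MAGEB2, an antigen of the MAGE family normally limited to germ cells, read 6.35, 5.71 and 5.65 in KO/LacZ against 7.38, 7.32 and 8.04 in KO/eIF4B, with no overlap and pair differences from -1.03 to -2.39 (mean -1.68, SE 0.25, adjusted p = 0.0469 by limma and Benjamini-Hochberg). NAP1L2, a nucleosome assembly protein best known from neurons, read 4.82, 5.53 and 4.91 against 6.18, 6.68 and 6.19 (-1.26, SE 0.06, adjusted p = 0.0163 by limma and Benjamini-Hochberg). The groups of NAP1L2 did not overlap either, while a difference of 1 sign at every treatment is part of the definition of steady. HSPB8, a small heat shock protein, read 6.23, 7.11 and 7.15 against 7.64, 8.08 and 8.42 (-1.22, SE 0.09). MAP1B, which binds microtubules, read 7.26, 7.76 and 8.31 against 8.08, 9.14 and 9.54 (-1.14, SE 0.11). The mean of all HSPB8 probe sets gave -0.66, and the 1 other with a mean of at least 5 was not lower in all 3 pairs.

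SERPINA3, an inhibitor of serine proteases, read 6.88, 6.65 and 6.99 in KO/LacZ against 8.0, 8.0 and 7.86 in KO/eIF4B, with no overlap (-1.11). MMP8, a collagenase, read 5.92, 5.48 and 4.62 against 6.77, 6.67 and 5.49 (-0.97). IL24, a cytokine, read 8.61, 6.00 and 4.19 against 9.65, 6.89 and 5.00. Its values were far lower under the drug in both lines, while the difference between the lines stayed between -0.81 and -1.04 (mean -0.91, SE 0.06). TM4SF18, a membrane protein on chromosome 3, read 6.70, 6.22 and 4.41 against 7.82, 7.13 and 5.47 (-1.03, SE 0.06). The scavenger receptor CD163L1 (-1.09), SCRG1 (-0.97), the membrane protein MCTP2 (-0.93) and the neuronal adhesion protein NEGR1 (-0.88) completed the list. The noncoding LINC02915 (-1.24) and LINC00664 (-1.02) were passed over. MAGEB2, CHAC1, SCRG1, MCTP2 and NEGR1 missed the threshold when dim genes were kept in the test.

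**Figure D2:**
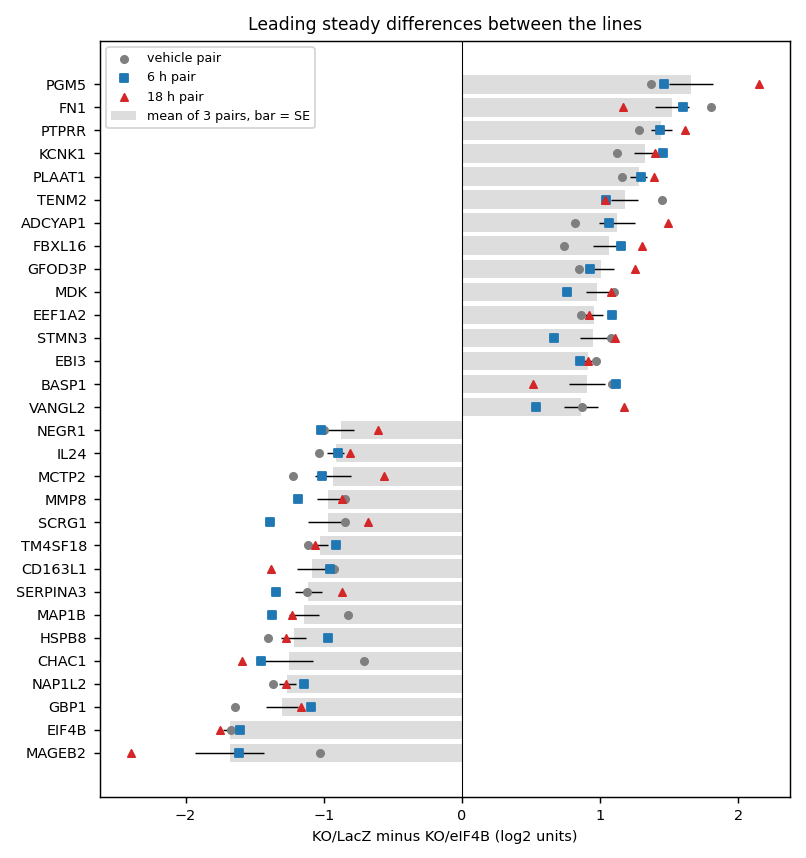
Difference between the lines (horizontal axis, KO/LacZ minus KO/eIF4B, log2 units) for the 15 highest and 15 lowest steady genes after symbols of the LOC, LINC, KIAA, FAM and open reading frame patterns were passed over, with grey bars for the mean of 3 pairs, black lines for its standard error, and a marker for each pair. The 3 markers of each gene lie on the same side of 0, from 1.66 for PGM5 to -1.68 for MAGEB2, and those of EIF4B and PLAAT1 lie closer together than those of MAGEB2.

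Of 35 tested genes linked to ATF4, which drives the integrated stress response, CHAC1 and DDIT3 were steady, both lower in KO/LacZ, and 21 in all were lower in all 3 pairs. ATF4 is itself controlled at translation: when initiation is limited, its mRNA is translated more, and it then turns on genes of amino acid supply and of stress-induced death. The promoters of such genes often carry a composite ATF4-C/EBP element. The stretches around the element, TGATGNAA or its reverse complement, are shown for the 4 list members that hold it within 250 bases before the start, all lower in KO/LacZ in all 3 pairs. They are RefSeq sequences of GRCh38.p14, 5' to 3' on the gene's strand, with the element in capitals.
CHAC1 (chr15:40953227-40953304, plus strand): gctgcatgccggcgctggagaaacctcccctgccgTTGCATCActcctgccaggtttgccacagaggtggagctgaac
ASNS (chr7:97872434-97872511, minus strand): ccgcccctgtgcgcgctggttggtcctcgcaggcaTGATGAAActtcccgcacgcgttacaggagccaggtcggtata
AARS1 (chr16:70289651-70289728, minus strand): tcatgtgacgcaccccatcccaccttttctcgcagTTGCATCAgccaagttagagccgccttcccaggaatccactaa
ATF3 (chr1:212565181-212565258, plus strand): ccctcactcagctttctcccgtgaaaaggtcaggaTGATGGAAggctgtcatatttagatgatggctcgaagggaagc
The element was found in 177 of 10857 genes tested that have a promoter entry (1.6%), in 4 of 29 members of the list (13.8%) and in 5 of 119 steady lower genes (4.2%) against 1 of 154 steady higher genes (0.6%). The motif was chosen after the list's values were seen, and a match is a description of the letters only.

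CHAC1, an enzyme that degrades glutathione, read 5.99, 7.57 and 6.44 in KO/LacZ against 6.70, 9.02 and 8.03 in KO/eIF4B. It was lower in each pair, by -0.71, -1.46 and -1.59, while the groups overlapped across treatments (mean -1.25, SE 0.18, adjusted p = 0.0428 by limma and Benjamini-Hochberg). DDIT3, the stress transcription factor CHOP, read 7.95, 8.98 and 8.96 against 8.55, 9.99 and 9.87 (mean -0.84, SE 0.09, adjusted p = 0.0313 by limma and Benjamini-Hochberg). These were the 2 steady genes among the 35 (5.71%, against 2.5% of all genes tested), 0 being steady in the other direction. Of the 35, 21 were lower in all 3 pairs (60%, against 21.2% of all genes) and 1 was higher, and 21 had an unadjusted limma p under 0.05 (against 23% of all genes).

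The list's median difference was -0.42, against 0.00 over all genes tested. By pair it was -0.01 in vehicle, -0.57 at 6 h and -0.68 at 18 h, against 0.01, 0.00 and 0.01 over all genes. ASNS, which makes asparagine, read 9.19, 10.02 and 10.64 in KO/LacZ against 9.35, 11.26 and 12.03 in KO/eIF4B. The pair under vehicle was the closest, and ASNS missed the threshold (-0.93, adjusted p = 0.115 by limma and Benjamini-Hochberg). NUPR1, a stress-induced chromatin protein, had pair differences of -0.20, -1.36 and -2.28 (mean -1.28, SE 0.38) and missed it too. The values of AARS1, alanyl-tRNA synthetase (-0.45), CTH, a cysteine-making enzyme (-0.55), TRIB3 (-0.84) and ATF3 (-0.25) were negative without passing. ATF4 mRNA read 12.02, 12.43 and 12.26 against 11.71, 12.54 and 12.37, with no common sign (0.03). A term for the difference between the vehicle pair and the drug pairs, which leaves 1 residual degree of freedom, called 0 of 13506 genes (limma with Benjamini-Hochberg adjustment), with 302 at an unadjusted p under 0.05. The unequal list medians by treatment are therefore given as values. ER chaperones, the targets of other branches of the unfolded protein response, had 0 steady members of 19 and a median of -0.06. Of the 19, 7 had an unadjusted limma p under 0.05 (36.8%, against 23% of all genes). In all 3 pairs 9 were lower (47.4%, against 21.2%) and 3 higher (15.8%, against 25.9%).

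Interferon-induced genes included 4 steady members, all lower in KO/LacZ. Interferon signalling ends at transcription factors that bind the interferon-stimulated response element, here searched as GAAA, any 2 bases and GAAA on either strand. It lies within 250 bases before the start of GBP1 and IFI44, which were steady, and of BST2 and IFITM1, which were not and whose differences were positive. These 4 are shown in the same way, with the element in capitals: IFI44 is the steady list member that holds it, BST2 and IFITM1 are the members with it that were higher in all 3 pairs, and GBP1 was added from outside the list. The other 8 members that hold it, IFI6, IFIT1, IFIT3, IFIT5, ISG15, ISG20, OAS3 and SAMD9, had differences between -0.155 and 0.076.
GBP1 (chr1:89065291-89065370, minus strand): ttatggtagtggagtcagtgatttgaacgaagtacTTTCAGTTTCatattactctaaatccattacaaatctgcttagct
IFI44 (chr1:78649736-78649788, plus strand): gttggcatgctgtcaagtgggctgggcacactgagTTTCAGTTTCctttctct
BST2 (chr19:17405710-17405795, minus strand): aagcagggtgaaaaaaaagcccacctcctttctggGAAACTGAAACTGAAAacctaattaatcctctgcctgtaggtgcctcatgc
IFITM1 (chr11:313965-314039, plus strand): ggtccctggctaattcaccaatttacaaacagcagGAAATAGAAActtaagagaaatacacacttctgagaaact
The element was found in 235 of 10857 genes with a promoter entry (2.2%), in 11 of 19 interferon list members (57.9%), in 4 of the 8 of these that were lower in all 3 pairs (50%), in 4 of 119 steady lower genes (3.4%) and in 4 of 154 steady higher genes (2.6%). This motif too was chosen after the values were seen.

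GBP1, an interferon-induced GTPase outside the list, read 3.86, 4.74 and 5.61 in KO/LacZ against 5.51, 5.83 and 6.78 in KO/eIF4B (mean -1.30, SE 0.12, adjusted p = 0.0276 by limma and Benjamini-Hochberg). Its values were higher under the drug in both lines, so the groups overlapped across treatments, while each pair differed by over 1 log2 unit. Its KO/LacZ mean of 4.74 is under the filter of 5, which it passed through KO/eIF4B (mean 6.04), and it also passed the threshold with no filter. MX1, an antiviral GTPase, read 4.84, 5.45 and 5.43 against 5.61, 5.99 and 6.14, with no overlap (-0.67). IFI44 read 7.62, 7.91 and 8.61 against 8.13, 8.60 and 9.12 (-0.57). SAMD9L, an antiviral factor (-0.49), and IRF7, a transcription factor that amplifies interferon production (-0.44), were the other steady members. Of 24 members tested 4 were steady lower (16.7%, against 1.06% of all genes) and 0 higher. In all 3 pairs 11 were lower (45.8%, against 21.2%) and 3 higher, 10 had an unadjusted limma p under 0.05 (41.7%, against 23%), and the median was -0.08, against 0.00. The median by pair was -0.10, -0.16 and 0.03. SAMD9L and IFI44 missed the threshold with the mean of all probe sets. DDX60 (-0.57), SLFN11 (-0.50) and UBE2L6 (-0.32), which are also interferon-induced, were steady and were picked after their values were seen. In the antigen presentation list HLA-DMA, a chaperone of peptide loading on class II molecules, was the 1 steady gene of 20 (-0.47). This is 5% against 2.5% of all genes, and 12 members were lower in all 3 pairs (60%, against 21.2% of all genes, median -0.11).

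Matrix genes were the list with most steady members. Of 29 tested, 5 were steady higher (17.2%, against 1.44% of all genes) and 1 lower. In all 3 pairs 15 were higher (51.7%, against 25.9%) and 6 lower (20.7%, against 21.2%), and the median was 0.15, against 0.00. Besides FN1 the higher genes were COL4A5, a basement membrane collagen (0.73), FBN1, the microfibril protein fibrillin (0.64), COL12A1 (0.54) and COL6A1 (0.39). COL4A5 has a mean of 4.94 in KO/eIF4B and passed the filter through KO/LacZ (mean 5.68). FBN1 read 7.38, 7.77 and 9.55 in KO/LacZ against 6.80, 7.21 and 8.77 in KO/eIF4B, a difference of similar size at each treatment. COL13A1, a membrane collagen, went the other way and read 8.53, 6.43 and 3.04 against 8.92, 7.18 and 3.69 (-0.60). Its 18 h values lay under the array medians, and of its 2 other probe sets with a mean of at least 5, 0 were lower in all 3 pairs. ITGA1, a collagen-binding integrin subunit, was steady higher (0.67), the only 1 of 15 integrins (6.67%, against 2.5% of all genes), whose median was -0.03. Among matrix proteases and their inhibitors MMP8 alone of 20 was steady (5%). ITGA1 missed the threshold with the mean of all probe sets. Of 5 fibroblast markers tested, 0 were steady (3 at an unadjusted limma p under 0.05, against 23% of all genes), 4 were lower in all 3 pairs, and their median was -0.25, opposite in sign to the matrix list. In bulk RNA, fewer cells of a type and less RNA per cell cannot be told apart.

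Chemokine and cytokine genes went both ways. CXCL1, a neutrophil chemokine, read 10.37, 6.94 and 6.45 in KO/LacZ against 9.82, 6.10 and 6.03 in KO/eIF4B (0.60), and IL11, a cytokine of the IL6 family, was also steady higher (0.63). IL24 was steady lower, and these were 3 of 16 members tested (18.8%, against 2.5% of all genes). In the list of undifferentiated melanoma NGFR, a nerve growth factor receptor of neural crest-like melanoma cells, read 7.75, 7.06 and 6.81 against 8.39, 7.84 and 7.46. NGFR was lower in each pair (-0.69), while SOX9, a neural crest transcription factor, was steady higher (0.42), and FOSL1, an AP-1 subunit, lower (-0.39), 3 of 24 in all (12.5%, against 2.5%). CXCL1 and FOSL1 missed the threshold when the arrays were quantile-normalized again, and SOX9 with the mean of all probe sets. Of 14 pigment cell genes 0 were steady, and the 4 at an unadjusted limma p under 0.05 (28.6%) are a share near that of all genes (23%). KRT8, a keratin of simple epithelia, was steady higher (0.49), the 1 steady epithelial marker of 7 tested (14.3%, against 2.5% of all genes). Of the 7, 4 had an unadjusted limma p under 0.05 (57.1%, against 23%). In all 3 pairs 3 were higher (42.9%, against 25.9%) and 1 lower (14.3%, against 21.2%), and the median was -0.02.

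Among cancer-testis antigens, MAGEB2 (-1.68), MAGEA1 (-0.44) and PAGE1 (-0.44) were lower and PRAME (0.36) higher, 4 of 15 tested (26.7%, against 2.5% of all genes), and 10 of the 15 were lower in all 3 pairs (66.7%, against 21.2%). Of 15 cytosolic heat shock proteins HSPB8 and HSPB1 (-0.35) were lower, both small heat shock proteins (13.3%, against 1.06% of all genes lower), and the median was -0.08. HSPB1 missed the threshold when the arrays were median-centred or quantile-normalized again. In the hypoxia list ADM, the vasoactive peptide adrenomedullin (-0.71), and PLOD2, which modifies collagen (-0.38), were lower, 2 of 18 (11.1%, against 1.06%). Metallothioneins, which bind zinc and copper, had 0 steady members of 8. Of these 6 were lower in all 3 pairs (75%, against 21.2% of all genes), 7 had an unadjusted limma p under 0.05 (87.5%, against 23%), and the median was -0.22.

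The translation lists had few steady genes. In the list of eIF4F and helicase cofactors EIF4B was the only steady gene of 18 (5.56%, against 2.5% of all genes), and the median was -0.01. EIF4B is the gene delivered to KO/eIF4B, so that share is no result about the other members, of which none was steady. EIF4G2, a relative of the eIF4G scaffold, was lower in all 3 pairs without passing (-0.30, adjusted p = 0.0614 by limma and Benjamini-Hochberg), and EIF4H, another eIF4A cofactor, differed by 0.01. Of 38 other initiation and elongation factors EEF1A2 was the 1 steady gene (2.63%, near the 2.5% of all genes). In all 3 pairs 21 were higher (55.3%, against 25.9%) and 3 lower (7.89%, against 21.2%), with a median of 0.05. Of 42 ribosomal protein genes 0 were steady (0 at an unadjusted limma p under 0.05, against 23% of all genes). The median was 0.02 and the differences ran from -0.03 to 0.12. In all 3 pairs 20 were higher (47.6%, against 25.9%) and 3 lower (7.14%, against 21.2%). Ribosome biogenesis had 0 steady genes of 28 (2 at an unadjusted limma p under 0.05), and the kinases that act on eIF4B had 0 of 11 (0 at an unadjusted limma p under 0.05). Since RMA gives all arrays about the same distribution of values, these data cannot show a shift in total mRNA.

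Of 12 mRNAs with reported sensitivity to eIF4B or eIF4E, 2 were steady (16.7%, against 2.5% of all genes), in opposite directions. CCND1, the G1 cyclin D1, read 10.98, 8.37 and 7.59 in KO/LacZ against 11.40, 8.79 and 8.16 in KO/eIF4B (-0.47, adjusted p = 0.0342 by limma and Benjamini-Hochberg). BCL2, an inhibitor of apoptosis, read 6.31, 5.85 and 5.50 against 5.90, 5.54 and 5.20 (0.34, adjusted p = 0.0481 by limma and Benjamini-Hochberg). CCND1 was lower in KO/LacZ at each treatment and BCL2 higher at each, though BCL2 missed the threshold with the mean of all probe sets. MYC, which is often named in this class, differed by -0.30 and missed the threshold (adjusted p = 0.266 by limma and Benjamini-Hochberg). CCND1 and FOSL1 were the 2 steady genes of 24 in the ERK output list (8.33%, against 2.5% of all genes, median -0.11).

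Cell cycle genes had small, mostly negative differences. In the G1/S list CCND1 was the 1 steady gene of 28 (3.57%, against 2.5% of all genes), 17 were lower (60.7%, against 21.2%) and 4 higher in all 3 pairs, and the median was -0.10. In the G2/M list 0 of 25 were steady, with 3 at an unadjusted limma p under 0.05 (12%, below the 23% of all genes). The 25 differences ran from -0.22 to -0.02, 17 of them lower in all 3 pairs (68%, against 21.2%) and 0 higher. CDKN3, a phosphatase that acts on cyclin-dependent kinases, was steady lower (-0.49). KLF4, a transcription factor linked to growth arrest, had pair differences of -0.56, -1.86 and -2.07 and missed the threshold (mean -1.50, SE 0.30, adjusted p = 0.076 by limma and Benjamini-Hochberg). CCNB2 was negative in all 3 pairs (-0.21) but 0.03 with the mean of all its probe sets.

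**Figure D3:**
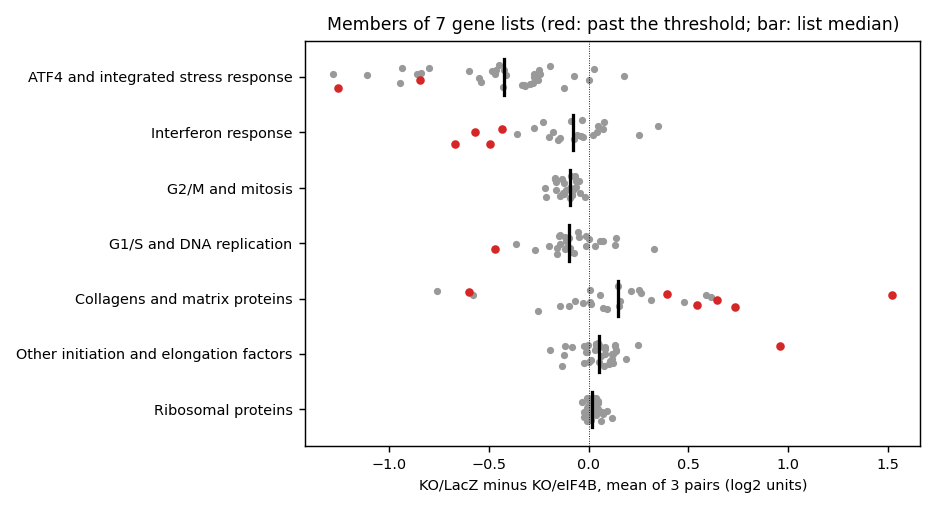
Mean difference between the lines (horizontal axis, KO/LacZ minus KO/eIF4B, log2 units, 3 pairs) of each tested member of 7 gene lists, with red points for genes past the threshold, grey points for the others and a black bar at the list median. The ATF4 list has its median at -0.42, the matrix list at 0.15 and ribosomal proteins at 0.02, with their points packed around 0.

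Steady genes were not spread evenly over the genome. On chromosome 13, 49 of 240 genes tested were steady higher and 0 lower (20.4%), and they make up 25.3% of all steady higher genes although the chromosome holds 1.78% of genes tested. Its median difference was 0.23, and it was found in each pair (0.23, 0.20 and 0.27). Of its genes 82.5% lay above 0, and 67.1% were higher in all 3 pairs. On chromosome 3, 27 of 722 genes were steady lower and 3 higher (4.16%), the median was -0.10 (-0.09, -0.11 and -0.09 by pair), and 50.4% were lower in all 3 pairs. The lower genes there make up 18.9% of steady lower genes, against 5.35% of genes tested. On the other 21 chromosomes the medians lay between -0.01 and 0.03, between 1.37% and 4.83% of genes were steady, and between 14.9% and 26.9% were lower in all 3 pairs. These 2 chromosomes were singled out after all 23 had been seen.

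The shift ran along most of each chromosome. With the genes of chromosome 13 in order and cut into 5 equal blocks, the medians were 0.26, 0.29, 0.32, 0.17 and 0.17. On chromosome 3 they were -0.12, -0.09, -0.11, -0.14 and 0.01, so the last block, from ARHGEF26 to LMLN, did not share the negative median. On chromosome 13, RCBTB1 (0.74), the mitochondrial release factor MTRF1 (0.73), the mRNA deadenylation factor PAN3 (0.60), the Mediator kinase CDK8 (0.49), the Hippo pathway kinase LATS2 (0.45) and the RNA polymerase subunit POLR1D (0.35) were among the steady genes. On chromosome 3 the lower genes included TRIM59 (-0.82), the transcription factor ZBTB20 (-0.73), the DNA damage kinase ATR (-0.38), the ubiquitin ligase receptor CRBN (-0.37) and the surface protein CD47 (-0.32). PLAAT1 (1.28), MECOM (0.51) and VGLL3 (0.51) were steady higher on chromosome 3. Of these, only VGLL3 lies in a block with a negative median (-0.11). PLAAT1 and MECOM lie in the last block, which did not share the negative median, and so does TRIM59. These examples were picked after their values were seen.

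The arrays measured RNA, and DNA was not analysed here. Of the 337 steady genes 79 lay on chromosomes 3 and 13 and 258 elsewhere. When both chromosomes were left out of the test, an alternative added after the data were seen, 170 genes passed, all among those 258. CHAC1, MAGEB2, BASP1, VANGL2 and SCRG1 were among those that then missed the threshold. Without the 2 chromosomes the ATF4 list median stood at -0.43, the matrix list at 0.15 and the interferon list at -0.07. Few list members lie there, so these medians had little room to move. The members left were 34 of 35 in the ATF4 list, 27 of 29 in the matrix list and 23 of 24 in the interferon list.

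**Figure D4:**
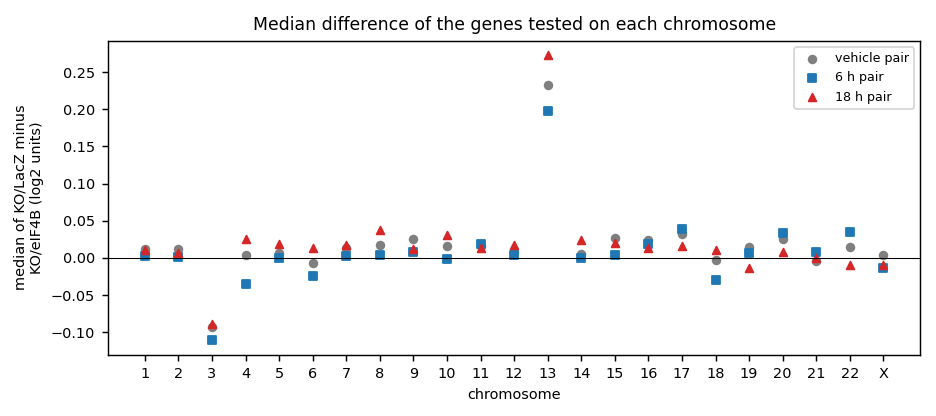
Median difference between the lines (vertical axis, KO/LacZ minus KO/eIF4B, log2 units) of the genes tested on each chromosome (horizontal axis), with a grey circle for the vehicle pair, a blue square for the 6 h pair and a red triangle for the 18 h pair. Chromosome 13 lies between 0.20 and 0.27 and chromosome 3 between -0.11 and -0.09 in the 3 pairs, and the other chromosomes lie near 0.

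**Figure D5:**
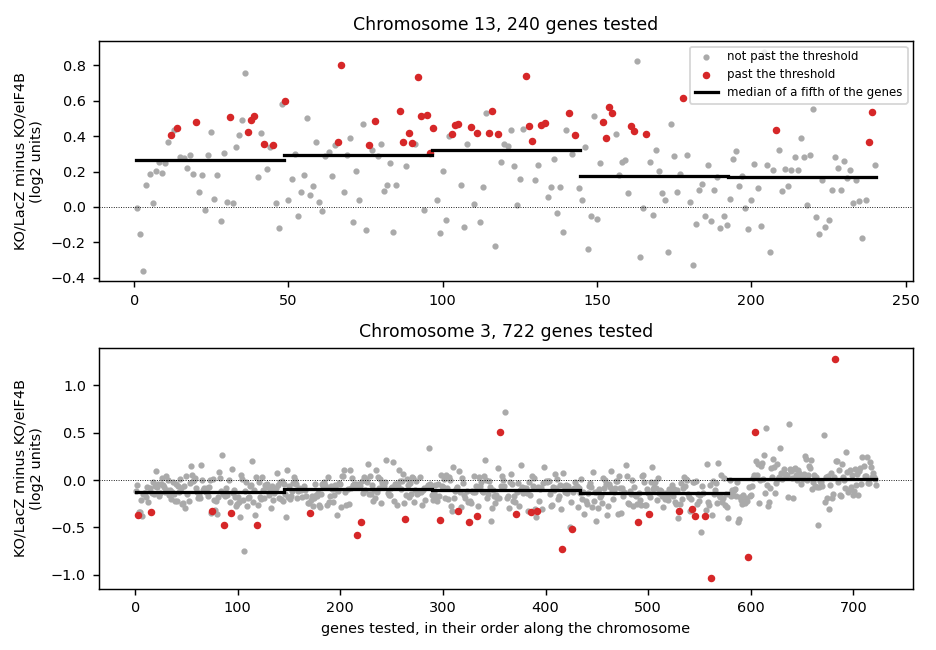
Mean difference between the lines (vertical axes, log2 units, 3 pairs) of the 240 genes of chromosome 13 and the 722 genes of chromosome 3, in gene order (horizontal axes), with red points past the threshold, grey points for the others and black lines for the median of each of 5 blocks. The blocks of chromosome 13 lie between 0.17 and 0.32, and the last block of chromosome 3 lies at 0.01 while its other blocks lie between -0.14 and -0.09.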

How the data were processed

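RNA of 6 A375 samples was hybridised to Affymetrix U133 Plus 2.0 arrays, 1 array per line and treatment. The authors deposited 1 linear intensity per probe set, from 3.01 to 19000. Per the submitters' processing notes, RMA and affy were used; versions are not given in the sources used here. Differences at either end of the intensity range are compressed by RMA. Here log2 was taken first. Of 54675 probe sets, 62 controls were left out, 41091 carry 1 gene symbol, 1801 several and 11721 none here. Through gene identifiers 41037 matched the RefSeq GRCh38.p14 table, and 0 symbols changed. For each of 19775 genes the probe set with the highest mean was used, and the 13506 with a mean log2 value of 5 or more were tested.

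The additive fit of line and treatment was made with lmFit and eBayes of limma 3.58.1 (R 4.3.3; 2 residual and 3.2 prior degrees of freedom), with Benjamini-Hochberg adjustment over all genes and a threshold of 0.05. It was tested on simulated data. The number of arrays limits the precision. The genes named are EIF4B, the 15 highest and 15 lowest steady differences after symbols of the LOC, LINC, KIAA, FAM and open reading frame patterns, taken as predicted loci although some are established genes, were passed over, and up to 4 members of each of 39 lists, steady ones first. Other genes named were picked after their values were seen. The members and lists were chosen with earlier results of these data known, and so were the tests. No list was tested as a set, and the shares of all genes tested are given for comparison. Promoter sequences are from RefSeq, 250 bases before the start, and 10857 genes tested had an entry. Alternatives changed the filter, the scaling, the choice of probe set, the variance prior, a minimum difference, the pairs used and the block.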

Additional observations from a re-analysis of the deposited data

How the results depend on the processing

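Counts of steady genes equal counts of genes called under each setting. Against 337 in the text, the count was 58 with no filter on dim genes (53 of them among the 337), 513 with a mean of at least 6 (281 shared), 1169 with an intensity trend in the prior (337 shared), 1 with a difference beyond 0.5 log2 units (EIF4B), 1 with no treatment block, which is the fit without the pairing, and 170 without chromosomes 3 and 13. Leaving out 1 pair gave 0 to 50. Quantile normalization again gave 354 (307 shared), median-centring 287 (284 shared), the mean of all probe sets 365 (226 shared) and each probe set alone 395 (230 shared). Where the values themselves changed, steady genes kept their direction. This held for 337 after quantile normalization and after median-centring. Median-centring could hardly have changed it, since array medians lay between 5.196 and 5.221 and the smallest steady difference was 0.304. With the mean of all probe sets it held for the 303 of 303 that entered that fit, and the others of the 337 did not enter it. Of the 337, 124 have 1 probe set, so their values could not change there. In the other settings the values of each pair stayed the same, so the direction of steady genes was fixed by definition. EIF4B had -1.68 without the vehicle pair and, past the threshold no longer, -1.71 without the 6 h pair (adjusted p = 0.0623 by limma and Benjamini-Hochberg) and -1.64 without the 18 h pair (adjusted p = 0.0822), which leave 1 residual degree of freedom. The chromosome 13 median was 0.097 with no filter and 0.28 with a mean of at least 6, and 0.21 to 0.25 with 1 pair left out. The chromosome 3 median was -0.068 with no filter and -0.11 after quantile normalization, and -0.092 to -0.10 with 1 pair left out. With the mean of all probe sets the sign turned for CCNB2 (0.031), SCD (-0.005), SMAD3 (-0.004) and COL1A1 (0.135), of which none had passed. The cause was not tested in any of these cases, beyond fewer pairs or another set of genes entering the fit. Dim genes are measured with little signal over background, and 6 arrays limit what can be called.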

Other observations

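Many zinc finger genes of chromosome 19 encode KRAB repressors. Of all genes tested, 1.06% were steady lower and 1.44% steady higher, and 21.2% were lower and 25.9% higher in all 3 pairs. Of 183 tested genes with a ZNF symbol on chromosome 19, 11 were steady lower and 0 higher. In all 3 pairs 79 were lower (43.2%) and 23 higher, and the median was -0.06. Of the 805 other genes tested on chromosome 19, 5 were steady lower and 12 higher, 16.1% were lower in all 3 pairs, and the median was 0.01. Of 211 ZNF genes on other chromosomes, 2 were steady lower and 3 higher, and 17.1% were lower in all 3 pairs. ZNF880 (-0.67) and ZNF677 (-0.61) had the most negative differences of the 11. In the PCDHB cluster of protocadherins on chromosome 5, PCDHB7 was the 1 steady lower gene of 12 (-0.73, against 1.06% of all genes). Of the 12 members 8 were lower in all 3 pairs (66.7%, against 21.2% of all genes), and the median was -0.27. By pair the median was -0.26 in vehicle, -0.37 at 6 h and only -0.06 at 18 h. These families share sequence between members, so a probe set can read more than 1 of them. They were picked after their values were seen, and the differences between these groups of genes were not tested.

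Some steady genes are neighbours in the gene order and differed the same way. HBE1, an embryonic globin, and the olfactory receptor OR51B4 on chromosome 11 were higher (0.54 and 0.62). MAGEB2 and TAB3 on chromosome X were lower (-1.68 and -0.45), as were ELMO1 and EPDR1 on chromosome 7 (-0.53 and -0.72). The same was found for RBM24 and CAP2 on chromosome 6 (-0.59 and -0.51), and ZSCAN18 and ZNF329 on chromosome 19 (-0.42 and -0.61). RBM24 has a mean of 4.85 in KO/LacZ and passed the filter on dim genes through KO/eIF4B (mean 5.44).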
